A study of Mus musculus with 15 samples.

Results

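Calorie restriction (CR) was compared with the control diet in the gastrocnemius, the large calf muscle, of old male C57BL/6NHsd mice. The comparison used 10 of the 15 arrays of the series, chosen by their age and diet labels: 5 old mice on the control diet and 5 old CR mice, all 25 months old, with 1 array per mouse. Control mice received 84 kcal per week, about 15% below the intake of freely fed mice, so the reference group was itself mildly restricted. The intake of CR mice differed from theirs by 26%, both regimens were life-long, and the restricted ration was made richer in protein, vitamins and minerals to offset its smaller size. All mice were of 1 sex and 1 strain and were housed singly. The 5 young mice (5 months, control diet) entered the fit for their spread and are shown beside the old groups where they help to read a value.

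Calorie restriction without malnutrition extends life in many laboratory animals. Skeletal muscle takes up much of the glucose after a meal, burns fatty acids in its mitochondria between meals and is the largest store of protein in the body. The gastrocnemius is made mostly of fast fibers, which rely on glycolysis, with fewer slow fibers, which are rich in mitochondria. Between the fibers lie capillaries, connective tissue, nerve, fat cells and immune cells, all of which contribute RNA to a dissected muscle.

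Of the 14 measured muscle identity genes, such as Ckm, the muscle creatine kinase (27762 ± 3973 in old and 37775 ± 5248 in old CR mice, SD, n = 5 each), 1 was called between the diets, Myh1, and their summed intensity was high in every mouse, 248322 to 329551 in old and 280324 to 391263 in old CR mice. Most leaned higher in old CR mice. Their median log2 difference was 0.32, 13 had higher means, and 8 had an unadjusted p from limma under 0.05, beside 21.9% of all probe sets. The deposited value is 1 linear intensity per probe set, a group of short probes near the 3' end of a transcript, and every array is scaled to a trimmed mean of 500. Single values are listed in the order of the replicate numbers, 1 to 5 for old and 2, 3, 5, 6 and 7 for old CR mice. Intensities are otherwise given as mean ± SD over 5 mice, and differences are old CR minus old on the log2 scale with the standard error (SE). A probe set was called when its adjusted p from limma was under 0.05. A sign of cDNA completeness, called 3' excess here, is the log2 signal of Gapdh and Actb at their 3' end less that at their 5' end, averaged over both genes, and it did not overlap between the groups. It was 0.274, 0.061, 0.136, 0.118 and 0.049 in the old mice and -0.281, -0.210, -0.324, -0.253 and -0.417 in the old CR mice. The means differed by -0.425 (two-sided exact permutation p = 0.00794, which is the lowest that 5 against 5 mice allow). Young replicate 3, at 0.056, lay among the old mice, and the other young mice lay between -0.277 and -0.177. Old replicates 2 and 3 stood apart in another way, with a summed intensity of 23 keratin and skin genes of 17997 and 16880, against 3099.8 to 3363 in the other old mice.

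Across 22626 probe sets, 612 were called higher (2.7%) and 490 lower (2.17%) in old CR mice, 1102 (4.87%) in all, and these named 934 genes. The median difference was 0.97 among the rises and -0.74 among the falls, and 291 rises and 117 falls exceeded 2-fold. The groups did not overlap at 2012 probe sets (8.89%), of which 951 were called. In all, 4950 probe sets (21.9%) had an unadjusted p under 0.05. Among the brighter probe sets, the 11313 of highest mean intensity, 810 (7.16%) were called, 395 higher and 415 lower. Dimmer probe sets held the other 292 calls, most of them rises. By the brightest probe set of each of 12393 genes, 604 genes were called (4.87%), 267 higher (2.15%) and 337 lower (2.72%), with a median difference of 0.022 over all genes and 52.25% higher means. These shares are the background for the count of every gene list. The called genes had 1132 other probe sets that were not called, of which 67% had the same direction, and 5 genes were called in both directions. With each array centered on its median, the median over all probe sets moved from 0.056 to -0.032 and the calls to 420 rises and 687 falls, 37.9% rises against 55.5%. Leaving out any 1 old or old CR mouse gave 270 to 448 rises and 192 to 319 falls, leaving out young replicate 3 gave 969 and 688, and leaving out old replicates 2 and 3, a choice made after seeing the data, gave 87 and 40. With 3' excess as a covariate limma called none (1461 at an unadjusted p under 0.05, against 4950 without it). The diet and 3' excess cannot be told apart in these 10 mice.

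**Figure D1:**
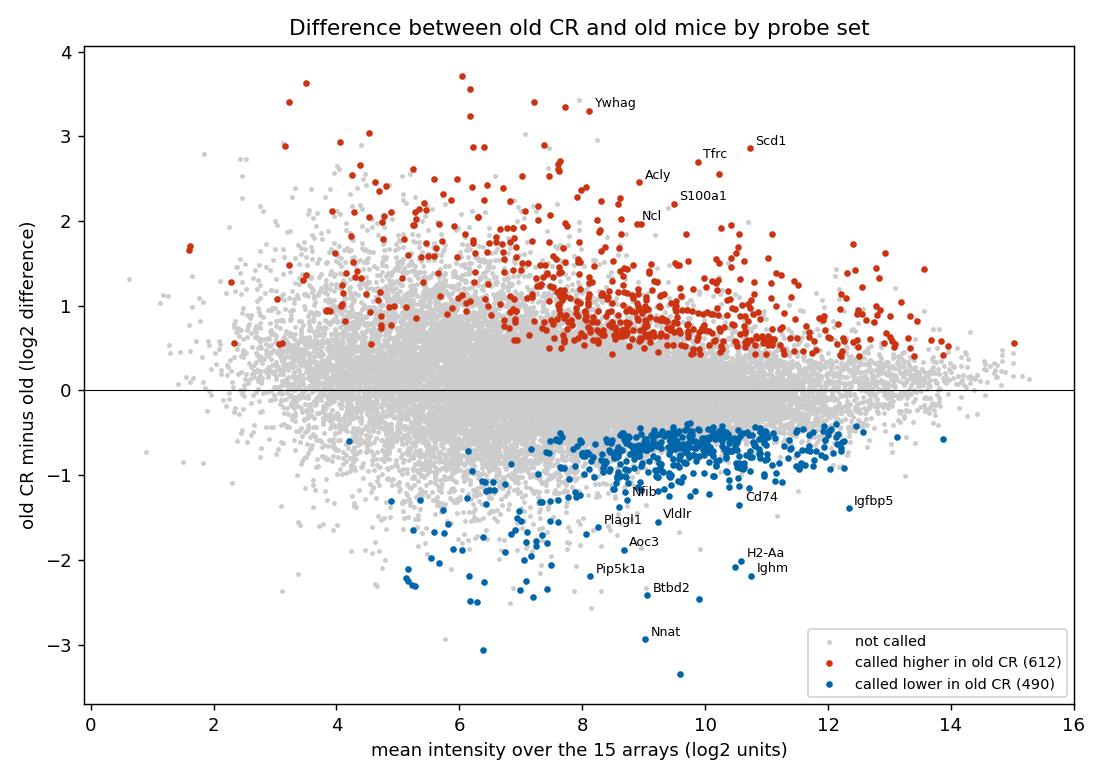
Log2 difference between old CR and old mice (y axis) against the mean intensity over the 15 arrays in log2 units (x axis), 1 point per probe set, with the 612 called higher in red, the 490 called lower in blue and some of the genes of largest change labelled. Called rises of over 2-fold lie mostly at low and middle intensities, and the falls of H2-Aa, Ighm and Igfbp5 lie at high intensities.

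The young mice are shown beside these calls as a description. They did not enter the contrast, but they entered the fit for its spread and are not an independent check. The probe sets were chosen by the old and old CR values. Over the 612 rises, the median value of each old CR mouse lay 0.931 to 1.01 above the mean of the old mice, and that of young replicates 1, 2, 4 and 5 lay 0.671 to 0.767 above it. Young replicate 3 lay 0.148 above it and was nearer to the old than to the old CR mean at 77.1% of these probe sets, against 26.5% to 29.9% in the other 4 young mice. Over the 490 falls the median was -0.769 to -0.694 in old CR mice, -0.475 to -0.377 in those 4 young mice and -0.144 in young replicate 3. Thus 1 mouse of the young group, with a 3' excess like that of the old mice, also had values like theirs at most probe sets called between the diets. The part of 3' excess in the calls was not tested.

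**Figure D2:**
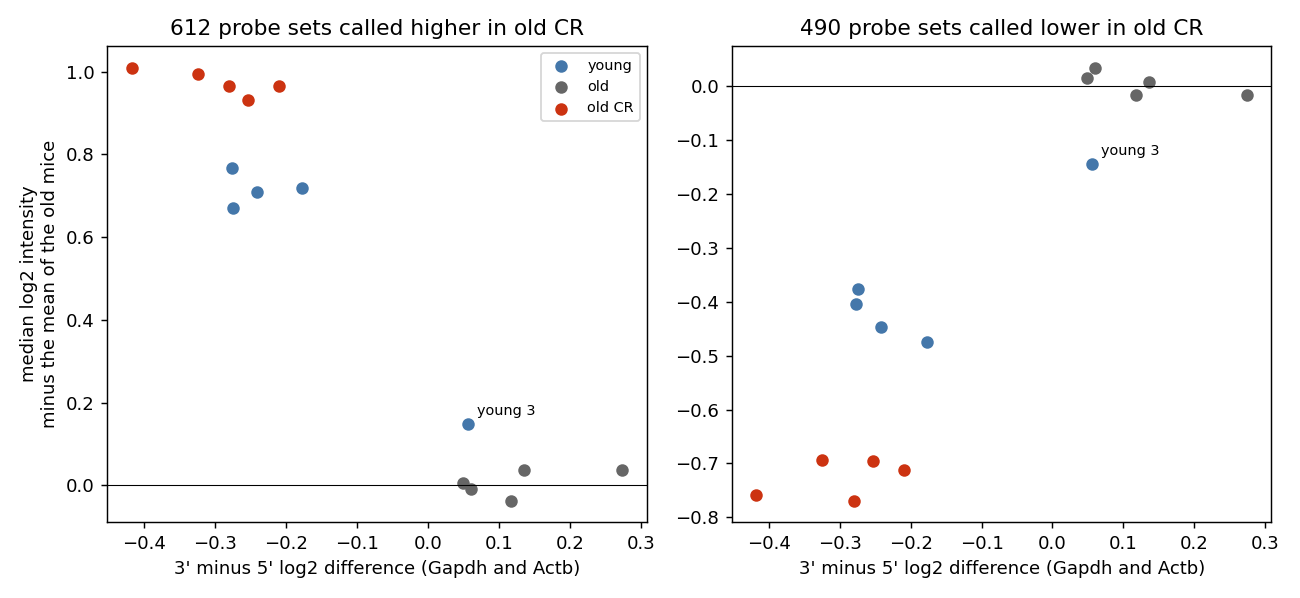
Median log2 intensity of each of the 15 mice relative to the mean of the old mice (y axis) against the 3' excess of its array, the 3' minus 5' signal in log2 units (x axis), over the 612 probe sets called higher (left) and the 490 called lower (right). Old and old CR mice chose these probe sets and so lie apart, and young replicate 3 lies by the old mice. The other young mice lie nearer to the old CR mice in the rises and about midway in the falls.

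Lipid-making and iron-uptake genes stood among the 12 largest rises that named 1 gene, lay among the brighter probe sets and did not overlap between the diets. Acly, which splits citrate to give acetyl-CoA for fatty acids and sterols, read 81.7, 179, 207, 145 and 114 in the 5 old mice and 891, 689, 621, 863 and 755 in the 5 old CR mice. Every old CR mouse was above every old mouse by a wide margin (log2 difference 2.46, SE 0.29, adjusted p = 0.00457). Its brightest probe set rose from 668 ± 183 to 2414 ± 757 (log2 difference 1.85, SE 0.24, adjusted p = 0.00511), and of its other 3 probe sets 1 rose by 1.52 (adjusted p = 0.01), while those at 0.77 (adjusted p = 0.442) and -2.0 (adjusted p = 0.279) were not called. With 3' excess as a covariate, limma gave Acly a difference of 1.16 (unadjusted p = 0.0306), and it was the 1 gene of the 12 under 0.05 there. Scd1, the desaturase that makes monounsaturated fatty acids, read 897, 605, 361, 94.8 and 87.4 in the 5 old mice and 1239.8, 2171, 2551, 1669.7 and 2836 in the 5 old CR mice. The old mice spread over a 10-fold range, from 87.4 to 897, below all old CR mice (log2 difference 2.86, SE 0.71, adjusted p = 0.0373). Its brighter probe set, with a mean of 8669, differed by 1.21 (adjusted p = 0.154) and was not called. Tfrc, the transferrin receptor that brings iron into cells, read 385, 325, 264, 93.8 and 161 in the 5 old mice and 2069.6, 1312, 1376, 978 and 1589 in the 5 old CR mice, again without overlap (log2 difference 2.70, SE 0.47, adjusted p = 0.0112). A dimmer probe set of Tfrc rose by 1.18 (adjusted p = 0.016), and the brightest differed by 0.82 (adjusted p = 0.148).

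S100a1, a calcium-binding protein of striated muscle, rose from 258 ± 63.4 to 1197 ± 376 (log2 difference 2.20, SE 0.38, adjusted p = 0.0102), and its brighter probe set rose by 1.37 (adjusted p = 0.009). Coa3, an assembly factor of cytochrome c oxidase, rose from 119 ± 80.1 to 430.1 ± 35 (log2 difference 2.24, SE 0.48, adjusted p = 0.0225), with a rise of 0.97 (adjusted p = 0.014) at a brighter probe set. Both genes were thus called by more than 1 probe set, as were Acly and Tfrc. The other rises were called at 1 probe set alone. Ywhag, a 14-3-3 signaling adaptor, read 32.3, 85.1, 19.2, 23.9 and 32.6 in the 5 old mice and 169, 679.6, 326, 259.9 and 398 in the 5 old CR mice (log2 difference 3.30, SE 0.84, adjusted p = 0.0389), while 2 brighter probe sets differed by -0.14 (adjusted p = 0.567) and 0.62 (adjusted p = 0.117). Ndrg1 (2.40, adjusted p = 0.0441), the copper transporter Slc31a2 (2.29, adjusted p = 0.0169), the trypsin gene Prss2 (2.37, adjusted p = 0.0123), Anp32a (2.20, adjusted p = 0.00699) and Ncl, the nucleolar protein nucleolin (1.97, adjusted p = 0.047), each had a brighter probe set that was not called, at -0.037, -0.74, 0.17, -0.20 and 0.22. Josd2, a deubiquitinase with 1 probe set, rose from 142 ± 73.9 to 546 ± 44.6 (log2 difference 2.27, SE 0.49, adjusted p = 0.0215). In young replicate 3 Ywhag was at 16.8, Ncl at 63.2 and Ndrg1 at 46.8, within or below the old range, as were 9 of the 12 rises in this mouse, against 0 or 1 in each other young mouse (for the 12 falls, 8 against 2 to 7 within or above it). With the covariate, Ywhag (-0.71), Ndrg1 (-0.93), Ncl (-0.37) and Josd2 (-0.01) turned negative. When 1 mouse at a time was left out, Acly, Anp32a, Coa3, Josd2, Prss2, S100a1, Slc31a2 and Tfrc were called in all 15 fits, and the highest adjusted p ran from 0.081 (Scd1, without old replicate 5) to 0.0965 (Ndrg1, without old replicate 3) for Ncl, Ndrg1, Scd1 and Ywhag.

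**Figure D3:**
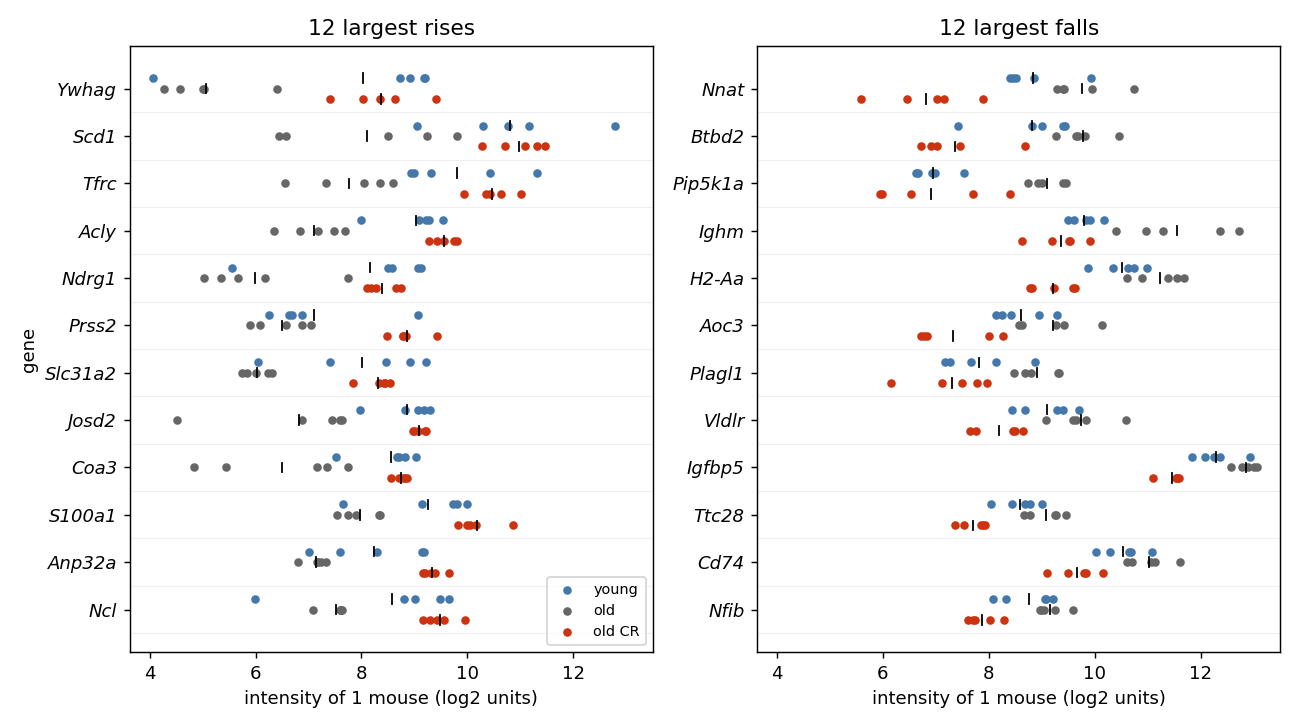
Log2 intensity of each mouse (x axis) at the 12 genes of largest rise (left) and of largest fall (right), with young mice in blue, old mice in grey, old CR mice in red and group means as black bars. Old and old CR values do not overlap by the rule of choice, and in several rises 1 blue point, young replicate 3, lies with the grey ones.

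Among the 12 largest falls were an imprinted gene of fat and endocrine tissues, genes of antigen presentation and antibody, and an IGF-binding protein. Nnat, a membrane protein made from the paternal allele, read 983, 686, 678, 1702 and 624 in the 5 old mice and 87.7, 47.9, 129.9, 142 and 237 in the 5 old CR mice. The highest old CR mouse was far below the lowest old mouse (log2 difference -2.94, SE 0.42, adjusted p = 0.00522), and young mice had 497 ± 269. Ighm, the heavy chain of immunoglobulin M, read 2499, 5275, 1999, 1343 and 6726 in the 5 old mice and 397, 729.6, 744, 963 and 586 in the 5 old CR mice. The old mice varied most, from 1343 to 6726, and the highest old CR mouse was at 963 (log2 difference -2.19, SE 0.38, adjusted p = 0.0112), although none of its other 10 probe sets was called, the brightest at -1.48, adjusted p = 0.136, and the remaining ones at -1.95 to 0.76. Igfbp5, an IGF-binding protein that muscle makes, read 8520.5, 8187, 7594, 6055 and 7043 in the 5 old mice and 2199.8, 2993, 3077, 3006 and 2972 in the 5 old CR mice, a fall of over 2-fold in which both groups were tight (log2 difference -1.39, SE 0.19, adjusted p = 0.00511). A dimmer probe set of Igfbp5 differed by -0.50 (adjusted p = 0.333).

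Other falls were those of Btbd2 (909 ± 293 to 188 ± 127, log2 difference -2.42, SE 0.42, adjusted p = 0.0104) and of Pip5k1a, a kinase of phosphoinositide signaling (561 ± 122 to 152 ± 119, log2 difference -2.20, SE 0.41, adjusted p = 0.0135). Pip5k1a was lower in young than in old CR mice, at 126 ± 34.4, and its 3 brighter probe sets were not called (-0.72 to -0.16). Aoc3, an amine oxidase of vessels and fat cells, fell from 641 ± 305 to 178 ± 95.7 (log2 difference -1.88, SE 0.38, adjusted p = 0.0169). Vldlr, a receptor for triglyceride-rich lipoproteins, fell from 913 ± 375 to 305 ± 91.5 (log2 difference -1.55, SE 0.31, adjusted p = 0.0164), with differences of -0.49 to -0.41 and no call at its other 3 probe sets. Ttc28 fell by 1.37 on the log2 scale (adjusted p = 0.00597) and by 0.65 (adjusted p = 0.026) at its brighter probe set. Nfib, a transcription factor, fell from 581 ± 112 to 238 ± 49 (log2 difference -1.29, SE 0.23, adjusted p = 0.0113), and another of its 4 probe sets fell by 1.17 (adjusted p = 0.04), while 0.22 (adjusted p = 0.603) and 0.16 (adjusted p = 0.578) were not called. All 12 falls had the same direction with the 3' excess covariate, the median ratio of the sizes being 0.915, and 7 had an unadjusted p under 0.05. The 12 rises had 8 of the same direction and a median of 0.251. Leaving out 1 mouse at a time, 11 of the 12 falls were called in all fits, and Plagl1, a transcription factor described with the imprinted genes, had an adjusted p as high as 0.0667 (without old replicate 2).

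Class II molecules of the major histocompatibility complex (MHC) carry peptides to helper T cells, are made by macrophages, dendritic cells and B cells, and need the invariant chain Cd74 to fold. Their promoters share an upstream module whose Y box is bound by NF-Y. The promoters of H2-Aa, the alpha chain that fell most, and H2-Eb1, a beta chain, are shown because this module is shared by the class II genes, from RefSeq on GRCm38.p6, from 250 bases before the start to the base before it, with the Y box core CTGATTGG in capitals.
H2-Aa, chr17:34287824-34288073, minus strand: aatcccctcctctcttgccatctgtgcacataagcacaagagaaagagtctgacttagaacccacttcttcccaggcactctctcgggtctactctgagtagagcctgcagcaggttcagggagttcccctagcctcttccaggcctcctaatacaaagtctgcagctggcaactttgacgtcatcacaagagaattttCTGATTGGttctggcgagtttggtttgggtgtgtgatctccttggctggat
H2-Eb1, chr17:34305617-34305866, plus strand: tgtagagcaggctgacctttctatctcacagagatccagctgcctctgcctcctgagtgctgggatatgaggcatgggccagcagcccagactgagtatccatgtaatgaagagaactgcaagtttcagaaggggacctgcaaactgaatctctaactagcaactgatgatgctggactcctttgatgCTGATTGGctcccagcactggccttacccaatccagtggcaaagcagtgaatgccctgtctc
The letters CTGATTGG, searched on both strands, occur in 4.1% of 32851 RefSeq promoters (250 bases before to 50 after the start), and their presence says nothing about what bound there in these mice.

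H2-Aa read 1887, 3011, 2680.2, 1551 and 3298 in the 5 old mice and 449, 439, 601, 795 and 774 in the 5 old CR mice. The groups were separated at their nearest values, 1551 against 795 (log2 difference -2.01, SE 0.27, adjusted p = 0.00511), and the dimmer probe set differed by -1.01 (adjusted p = 0.0567). Cd74 read 1661, 2131, 2257, 1560.4 and 3106 in the 5 old mice and 546, 720.1, 1147, 907 and 883 in the 5 old CR mice, also with no overlap (log2 difference -1.35, SE 0.25, adjusted p = 0.0123). H2-Eb1 went from 981 ± 233 to 581 ± 133 with overlap and no call (log2 difference -0.75, SE 0.23, adjusted p = 0.0749), and with the covariate it differed by -1.45 (unadjusted p = 0.00631). Tap1, which pumps peptides to class I molecules, fell from 298 ± 37 to 198 ± 46.4 (log2 difference -0.61, SE 0.16, adjusted p = 0.0412), with overlap, and its 3 dimmer probe sets were not called (-0.42 to 1.23). Among 17 genes of antigen presentation, 3 were called lower and 0 higher, with a median of -0.24 and 12 lower means, beside 2.72% and 2.15% called and a median of 0.022 over all genes. With median centering 0 were called higher and 5 lower, and the median was -0.33.

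Most macrophage markers also had lower means. Ctss, a lysosomal protease that trims the invariant chain, fell from 1106 ± 96.5 to 616 ± 91.5 (log2 difference -0.85, SE 0.21, adjusted p = 0.0377). It was the 1 call among 33 macrophage markers (3.03%), near the 2.72% of all genes called lower. By limma 7 of the 33 had an unadjusted p under 0.05, beside 21.9% of all probe sets. The list had a median of -0.29 and 23 lower means. Csf1r, the receptor that macrophages need to survive, had 2355 ± 400.4 and 1563 ± 167 (-0.58, adjusted p = 0.0589), Mpeg1, a pore protein of macrophages, 189 ± 68.3 and 53.6 ± 29.3 (-1.88, adjusted p = 0.0706), and Lgals3, a lectin, 803 ± 392 and 384 ± 60.5 (-0.93, adjusted p = 0.076), none of them called. The other probe sets of Csf1r were at -0.026 and 0.017. The summed intensity of the macrophage list was 15250.4 to 22318 in old and 11590.1 to 15290.3 in old CR mice, with overlap, and in such a sample fewer cells of a type and less RNA per cell cannot be told apart. Ccl8, a chemokine for monocytes, fell from 891 ± 181 to 489 ± 76.3 (log2 difference -0.85, SE 0.19, adjusted p = 0.0266), the 1 call among 25 chemokines (4%, beside 2.72% of all genes called lower). Jchain, the joining chain of secreted antibody, went from 459 ± 399 to 109.9 ± 28 without overlap (-1.67, adjusted p = 0.0531). Of the 16 immunoglobulin and plasma cell genes Cd74 alone was called by its brightest probe set. The list had 6 higher and 10 lower means, with a median of -0.16. Its summed intensity, Cd74 included, was 9839 to 12913 in old and 4676 to 7972 in old CR mice, with no overlap. Cd52, a surface protein of lymphocytes, had 269 ± 78.5 and 119 ± 46.7 (-1.28, adjusted p = 0.0509), and limma called none of 19 T and NK cell markers (median -0.067, 2 at an unadjusted p under 0.05). A lognormal-normal model of the brighter probe sets, tried as another test, called 0 of 3 tested among these markers. It called 759 of 11313 probe sets in all, which is the background for its counts in every list. Among 33 interferon-induced genes Stat2, a transcription factor of the interferon response, rose from 99.3 ± 21.1 to 175 ± 36.1 (log2 difference 0.82, SE 0.22, adjusted p = 0.0471), the 1 call (3.03%, beside 2.15% of all genes called higher). In this list 23 had lower means and Iigp1 had 1038 ± 326 and 632 ± 169 (-0.70, adjusted p = 0.0702). With the covariate the medians were -0.20 for antigen presentation, -0.31 for macrophages and 0.055 for chemokines, the last with its sign turned. That of interferon-induced genes went from -0.11 to -0.0051. With each mouse left out in turn, H2-Aa and Cd74 were called in all 15 fits and the highest adjusted p ran from 0.0633 (Ccl8, without old replicate 3) to 0.0921 (Tap1, without old replicate 3) for Ccl8, Ctss and Tap1, and Stat2 reached 0.104 (without old replicate 3).

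Most genes of oxidative phosphorylation had higher means in old CR muscle, at small differences. The respiratory chain passes electrons from complex I to complex IV and its proton gradient drives the ATP synthase, and 62 of its 69 measured genes had higher means, 9 were called higher and 0 lower, beside 2.15% and 2.72% of all genes. The median was 0.24, and 0.33 with the 3' excess covariate. With median centering 3 were called higher and 0 lower, and the median was 0.15. The lognormal-normal model called 0 of 68 tested. Atp5e, the epsilon subunit of the ATP synthase, read 4776, 5001, 4954, 3719.7 and 5696 in the 5 old mice and 8961, 7447, 8794, 8078 and 8563 in the 5 old CR mice, with no overlap (log2 difference 0.80, SE 0.13, adjusted p = 0.00915). Ndufv1, the complex I subunit that takes electrons from NADH, rose from 5900.1 ± 937 to 10734 ± 721 (log2 difference 0.88, SE 0.17, adjusted p = 0.0146), and its neighbor Ndufv2 from 8594 ± 683 to 12160.3 ± 1449.5 (log2 difference 0.50, SE 0.11, adjusted p = 0.0276). Dimmer probe sets of Ndufv1 were at 0.45 and 0.31 and those of Ndufv2 at 0.10 and 0.38, none of them called. In complex III Uqcrh rose from 3420.5 ± 159 to 5298 ± 876 (log2 difference 0.62, SE 0.13, adjusted p = 0.0177), and in complex IV Cox8b, the heart and muscle form of subunit VIII, rose from 11329 ± 808 to 17058 ± 1572 (log2 difference 0.59, SE 0.12, adjusted p = 0.0157).

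The ribosomes and import machinery of mitochondria followed, with 6 of 47 genes called higher and 0 lower (median 0.16, 0.23 with the covariate). With median centering 3 were called higher and 0 lower, and the median was 0.073. Mrpl12, a protein of the large mitochondrial ribosomal subunit, read 852, 870.2, 1055, 719 and 827 in the 5 old mice and 2615, 1828, 1716, 1695 and 1918 in the 5 old CR mice. Old CR replicate 2 was the highest mouse and the groups did not overlap (log2 difference 1.17, SE 0.17, adjusted p = 0.00567). Mrpl11 rose from 1047 ± 125 to 1922 ± 238 (0.88, adjusted p = 0.0266) and by 0.76 (adjusted p = 0.0168) at a dimmer probe set, Mrpl2 from 1651 ± 75.9 to 2441 ± 293 (0.56, adjusted p = 0.027) and Mrps18c from 538 ± 85.6 to 1065 ± 253 (0.97, adjusted p = 0.0331), and so did Timm13, which guides proteins across the intermembrane space (1389.5 to 2139, 0.62, adjusted p = 0.0208). With the covariate Mrpl11 was at 0.031, while Mrpl12 (1.0), Mrps18c (1.40) and Uqcrh (0.64) had unadjusted p of 0.0164, 0.0129 and 0.0347. Among the 10 genes of both lists, Atp5e, Ndufv1, Cox8b, Uqcrh, Mrpl12 and Timm13 were called in all fits that left out 1 mouse, and the highest adjusted p ran from 0.0551 (Mrpl2, without old replicate 3) to 0.0715 (Mrps18c, without old replicate 5) for Mrpl11, Mrpl2, Mrps18c and Ndufv2.

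Fatty acid oxidation had the highest share of calls among the metabolic lists, 6 higher and 1 lower of 30 (median 0.26, 0.38 with the covariate). Hadha, the alpha subunit of the trifunctional protein that runs the last steps of the cycle for long chains, read 3749, 2858, 3627, 3122 and 3336 in the 5 old mice and 8805, 5696, 6315, 5656 and 6287 in the 5 old CR mice. All old CR mice were above all old mice, and old CR replicate 2 was highest (log2 difference 0.96, SE 0.16, adjusted p = 0.00791). Echs1, the short-chain enoyl-CoA hydratase, rose from 1783 ± 108 to 3912 ± 869.7 (log2 difference 1.11, SE 0.17, adjusted p = 0.0066), Decr1, which prepares unsaturated fatty acids for the cycle, from 2203 ± 292 to 3980.5 ± 701 (0.85, adjusted p = 0.0113), Acads, the short-chain dehydrogenase, from 1030.0 ± 87.1 to 1791 ± 345 (0.78, adjusted p = 0.0158), and Etfb, which passes the electrons on, from 5103 ± 574 to 7746 ± 424 (0.61, adjusted p = 0.0276). Mlycd, named after its value was seen, ran the other way, 1765 ± 525 to 994 ± 170.2 (-0.80, adjusted p = 0.0349), and its product removes malonyl-CoA, the inhibitor of fatty acid entry into mitochondria. Hadha (0.75) and Decr1 (0.74) had an unadjusted p of 0.0412 and 0.0387 with the covariate.

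Glycolysis and glycogen genes had 4 calls among 31, all higher, with 23 higher means (median 0.14). With median centering 2 were called higher and 0 lower, and the median was 0.052. The lognormal-normal model called 1 of 29 tested. The called genes were Pkm, the muscle pyruvate kinase (9758 ± 1141 to 14757 ± 2076, 0.59, adjusted p = 0.0299), Aldoa, the muscle aldolase (27210.5 ± 4248 to 40008 ± 6081, 0.56, adjusted p = 0.0365), Gys1, the muscle glycogen synthase (2876 ± 339.5 to 3905 ± 335, 0.44, adjusted p = 0.0389), and Bpgm (686 ± 112 to 1467 ± 328, 1.08, adjusted p = 0.0429), which turned to -0.30 with the covariate and was at -0.35 (adjusted p = 0.314) at another probe set. Gys1 also rose by 1.57 (adjusted p = 0.0218) at a dimmer one. In the citric acid cycle Pcx, pyruvate carboxylase, was the 1 of 27 genes called (747 ± 142 to 1283 ± 246, 0.78, adjusted p = 0.0306), and Idh2, the mitochondrial NADP isocitrate dehydrogenase, had 4679.6 ± 1298 and 8883 ± 1083 without overlap or call (0.96, adjusted p = 0.0559). Pdhb, a subunit of pyruvate dehydrogenase, had 5286 ± 724 and 7357 ± 1096 (0.47, adjusted p = 0.0832). Of these genes of fat and sugar metabolism, Echs1, Hadha, Decr1 and Acads were called in all fits that left out 1 mouse, and the highest adjusted p ran from 0.0676 (Etfb, without old replicate 2) to 0.0917 (Bpgm, without old CR replicate 7) for Aldoa, Bpgm, Etfb, Gys1, Mlycd, Pcx and Pkm.

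Amino acid breakdown genes called higher lay at several steps of the branched-chain pathway, for which muscle is a main site. Of 39 genes, 5 were called higher and 0 lower, with a median of 0.067. With median centering 2 were called higher and 2 lower, and the median was -0.022. Bcat2, the mitochondrial transaminase that opens the pathway, read 405, 408, 407, 245 and 343 in the 5 old mice and 924, 668, 603, 702 and 612 in the 5 old CR mice, with no overlap (log2 difference 0.96, SE 0.19, adjusted p = 0.0162). Bckdhb, a subunit of the dehydrogenase that follows, rose from 645 ± 141 to 1027 ± 196 (0.68, adjusted p = 0.0365), and Pccb, a subunit of propionyl-CoA carboxylase at its end, from 1098 ± 103 to 1641 ± 164 (0.58, adjusted p = 0.0423). Aldh4a1, a proline-degrading enzyme, rose from 483 ± 65.6 to 964 ± 154 (0.99, adjusted p = 0.0267) and Got1, the cytosolic aspartate transaminase, from 5896 ± 1175 to 9298 ± 1114 (0.68, adjusted p = 0.0365).

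The proteasome, which degrades ubiquitin-tagged proteins, had 6 of 38 subunits called higher and 0 lower, and at 13 subunits the groups did not overlap (beside 9.44% of all genes). Its median was 0.058, with 16 lower means. With median centering 4 were called higher and 0 lower, and the median was -0.03. Psmc1, an ATPase of the regulatory cap, read 837, 739, 893, 812 and 681 in the 5 old mice and 1461, 1444, 1679, 1451 and 1344 in the 5 old CR mice. The old CR mice lay clear of the old mice (log2 difference 0.90, SE 0.15, adjusted p = 0.0086). Psmc5, another ATPase, rose from 1340.1 ± 212 to 2544 ± 397 (0.93, adjusted p = 0.0131), Psmd7, of the lid, from 807 ± 148 to 1486 ± 181 (0.89, adjusted p = 0.0214), Psmd9, an assembly chaperone, from 259 ± 21.4 to 437 ± 53.7 (0.75, adjusted p = 0.0143), and Psmb3, of the core, from 2008 ± 125 to 2916 ± 327 (0.53, adjusted p = 0.0176, and 0.58 with unadjusted p = 0.0263 with the covariate). Dimmer probe sets of Psmd7 and Psmd9 were at -0.058 and -0.11 without a call. Ubiquitin ligases of atrophy, FoxO targets and autophagy genes gave no call by limma among 22, with 6 at an unadjusted p under 0.05, 0 of 22 tested by the lognormal-normal model, where Atg5 had -0.48, adjusted p = 0.0527, and Gabarap 0.69, adjusted p = 0.0617. Over the amino acid and proteasome genes named, Bcat2, Psmc1, Psmc5, Psmd9, Psmb3 and Psmd7 were called in all fits that left out 1 mouse, and the highest adjusted p ran from 0.0603 (Aldh4a1, without old CR replicate 7) to 0.0954 (Pccb, without old replicate 2) for Aldh4a1, Bckdhb, Got1 and Pccb.

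**Figure D4:**
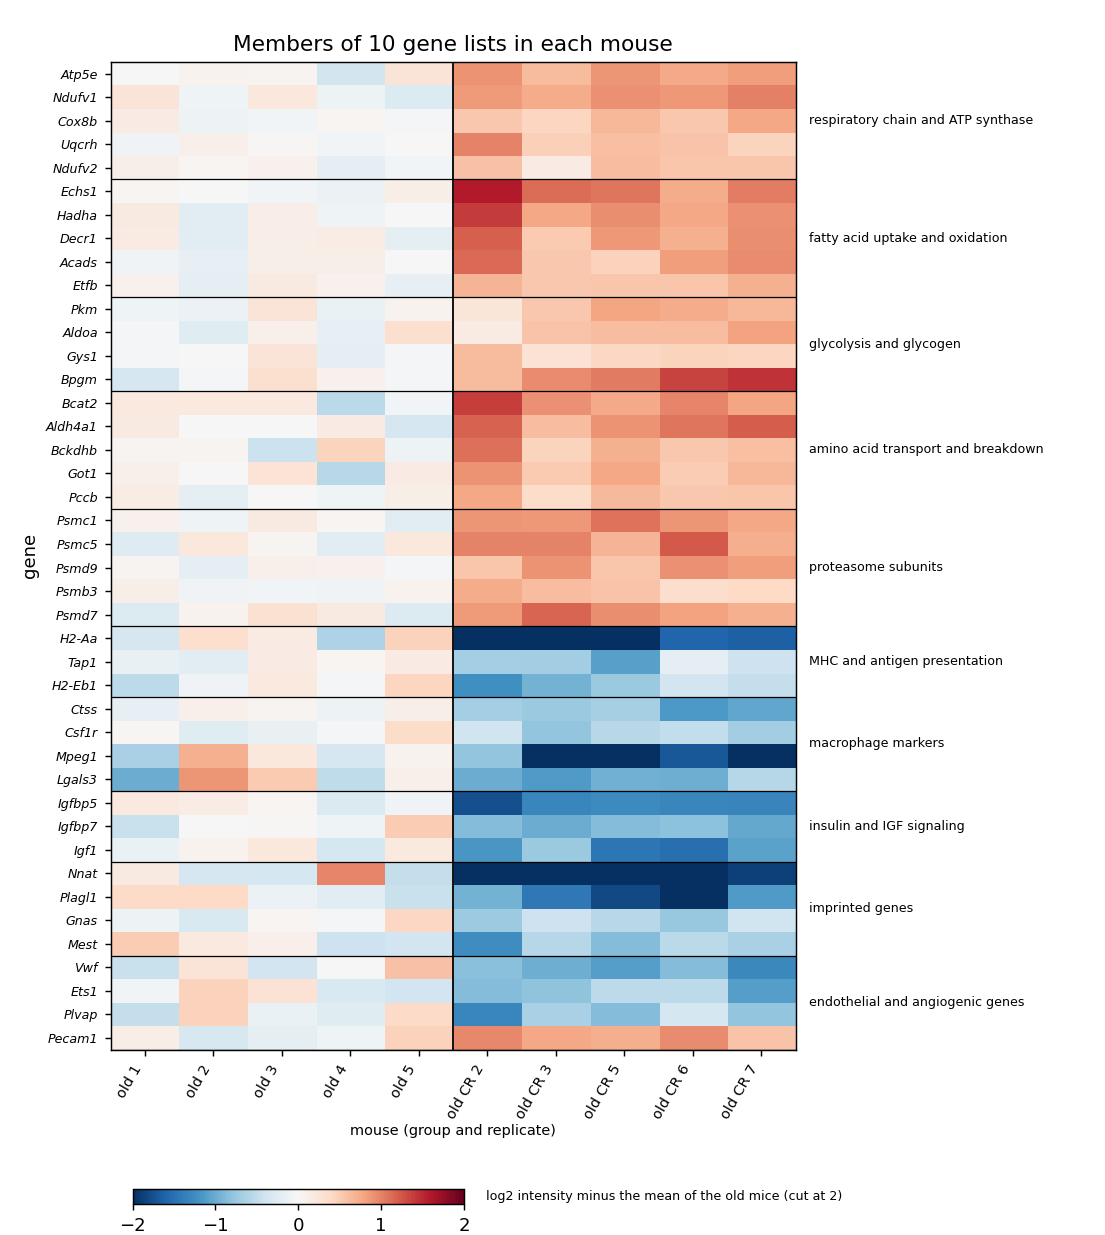
Log2 intensity of named members of 10 gene lists (rows) in each of the 10 mice (columns) relative to the mean of the 5 old mice, by the brightest probe set, from blue (lower) to red (higher) with the color cut at 2. The members shown were chosen among those of smallest p in their list in these same mice, so they do not stand for the whole list. By that choice metabolic and proteasome members lie higher in most old CR mice, and antigen presentation, macrophage, IGF and imprinted members lower. Of the whole lists, 16 of 38 proteasome subunits had lower means and 10 of 33 macrophage markers higher means.

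Lipid synthesis split between its members. Besides Acly, Fasn, the fatty acid synthase, was at 1741, 1006, 1032, 94.4 and 291 in the 5 old mice and 2430.2, 2231, 2141, 2235 and 1876 in the 5 old CR mice. The groups did not overlap, the old mice ranged from 94.4 to 1741, and the gene was not called (log2 difference 1.99, SE 0.60, adjusted p = 0.0714). Thrsp, an inducible regulator of lipogenesis, had 992 ± 629.6 and 1899.8 ± 467 at its brightest probe set (1.14, adjusted p = 0.103), and its other probe set was called higher, at 1.11 (adjusted p = 0.0491). Lpin1, which makes diacylglycerol, fell from 5694 ± 414 to 3678 ± 485 (log2 difference -0.64, SE 0.14, adjusted p = 0.0256), and Acacb, the acetyl-CoA carboxylase whose malonyl-CoA blocks fatty acid entry into mitochondria, fell from 2461 ± 309 to 1738 ± 147 (log2 difference -0.50, SE 0.13, adjusted p = 0.0423). A dimmer probe set of Lpin1 was at -0.27 (adjusted p = 0.218) and was not called. Over 22 genes 1 was called higher and 2 lower (median 0.093). In cholesterol synthesis Fdps, which makes farnesyl diphosphate, rose from 225 ± 22 to 462 ± 59.9 (log2 difference 1.03, SE 0.15, adjusted p = 0.00567) and Srebf2, the transcription factor of the pathway, from 394 ± 27.8 to 618 ± 69.1 (0.64, adjusted p = 0.0454), while 11 of 17 genes had lower means (median -0.14, and 0.33 with the covariate). Other probe sets of Fdps and Srebf2 were at -1.58 (adjusted p = 0.145) and -0.29 (adjusted p = 0.642). With median centering 1 was called higher and 1 lower, and the median was -0.23.

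Fat cells lie between muscle fibers, and their markers were read for that reason. Cebpa, a transcription factor of fat cells, fell from 1065 ± 206 to 515 ± 165 (log2 difference -1.08, SE 0.22, adjusted p = 0.0189) and Adipoq, the fat cell hormone adiponectin, had 4143 ± 1481 and 1846 ± 688 with overlap (-1.19, adjusted p = 0.0693). Plin4, a lipid droplet coat protein, had 3311 ± 416 and 2418 ± 326 (-0.45, adjusted p = 0.0824). Of 21 adipocyte markers 2 were called lower (Cebpa and the imprinted gene Mest) and 0 higher, beside 2.72% and 2.15% of all genes. The list had 10 higher and 11 lower means, with a median of -0.049. Its summed intensity was 58229 to 80055 in old and 57817 to 70149 in old CR mice, with overlap. The part of fat cells in the lipid genes was not tested. Leaving out 1 mouse at a time, Acly, Fdps and Cebpa were called in all fits, and the highest adjusted p ran from 0.0569 (Lpin1, without old replicate 3) to 0.103 (Mest, without old replicate 2) for Acacb, Lpin1, Mest and Srebf2.

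Slow fiber genes had the highest median difference of the 51 lists, 0.72 over 21 genes, with 19 higher means, 3 called higher and 0 lower. The median of single old CR mice ran from 0.34 to 1.5 above the mean of the old mice, and that of single old mice from -0.49 to 0.45, so the mice overlapped. Tnnc1, the slow and cardiac troponin C, read 5305, 3278, 5462, 2159 and 5078 in the 5 old mice and 12746, 12772, 9943, 8287 and 11812 in the 5 old CR mice. The lowest old CR mouse was above the highest old mouse (log2 difference 1.45, SE 0.33, adjusted p = 0.027). Tpm3, the slow tropomyosin, rose from 3382 ± 1452 to 8548 ± 1376 (log2 difference 1.42, SE 0.38, adjusted p = 0.0486) and by 1.14 (adjusted p = 0.0116) at a dimmer probe set, with its other 3 at -1.57 to 1.20 and not called, and Actc1, the cardiac actin that adult muscle also makes, from 2818 ± 1186 to 8294 ± 2847 (log2 difference 1.62, SE 0.38, adjusted p = 0.0296), with 12304 ± 4908 in young mice. Tnni1, the slow troponin I, had 2760.4 ± 1036 and 6811 ± 1976 without overlap or call (1.35, adjusted p = 0.0686), and Myl3, a slow myosin light chain, 10598 ± 3780.2 and 16651 ± 1372 (0.73, adjusted p = 0.114). With the covariate the median was 1.0.

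Fast fiber genes had smaller differences in the same direction. All 18 had a higher mean in old CR mice (median 0.26), with 1 called, Myh1, the myosin heavy chain of fast 2X fibers, which rose from 13746 ± 2028 to 19656 ± 1552 (log2 difference 0.52, SE 0.12, adjusted p = 0.0297). Pfkm, the muscle phosphofructokinase, had 15188 ± 2108 and 20791 ± 2513 (0.46, adjusted p = 0.0725). The 14 muscle identity genes had a median of 0.32, with 13 higher means. Among 23 developmental and regeneration genes Cav3, the muscle caveolin, rose from 503 ± 126 to 867 ± 90 (0.82, adjusted p = 0.0172), as did Actc1, while Myl4, the embryonic myosin light chain, fell from 1139.7 ± 194 to 721 ± 140.4 (-0.67, adjusted p = 0.0432), and Myod1, the regulator of muscle identity, had 888 ± 187 and 558 ± 169 (-0.70, adjusted p = 0.0727). The other probe set of Myl4 was at 0.58 (adjusted p = 0.512). Of the calcium handling genes 2 fell out of 26: Ppp3ca, the catalytic subunit of calcineurin, from 4061 ± 683 to 2148 ± 379 (log2 difference -0.92, SE 0.17, adjusted p = 0.0136), and Asph, whose locus also encodes junctional proteins of the calcium store, from 4478 ± 565 to 2798 ± 247 (log2 difference -0.67, SE 0.14, adjusted p = 0.0195). Ppp3ca also fell at a dimmer probe set (-0.78 (adjusted p = 0.0305)), and those of Asph were not called (-1.14 to 0.66). Neuromuscular junction and denervation genes gave no call by limma among 20 (median 0.13, 2 at an unadjusted p under 0.05, 0 of 12 tested by the lognormal-normal model). Of the fiber and calcium genes, Cav3, Ppp3ca and Asph were called in all fits that left out 1 mouse, and the highest adjusted p ran from 0.0641 (Tnnc1, without old replicate 2) to 0.109 (Tpm3, without old replicate 2) for Actc1, Myh1, Myl4, Tnnc1 and Tpm3.

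Imprinted genes are read from 1 parental allele and often act on growth. Of 21 measured members 4 were called lower and 0 higher, beside 2.72% and 2.15% of all genes. Their median was -0.17, and -0.051 with the covariate. After Nnat came Plagl1, a zinc finger factor that regulates other imprinted genes, at 629.8, 638, 446, 412 and 356 in the 5 old mice and 250.1, 179, 138, 71.1 and 219 in the 5 old CR mice. No values overlapped (log2 difference -1.62, SE 0.37, adjusted p = 0.0274), but with the covariate the difference was -0.72. Mest, a hydrolase-like protein of growing fat tissue, fell from 611 ± 166 to 353 ± 65.6 (-0.77, adjusted p = 0.0466), and Gnas, the stimulatory G protein alpha subunit, from 17662 ± 3423 to 11781 ± 1358 (-0.57, adjusted p = 0.0347), whose dimmer probe sets were not called (-0.17 to 0.63). The groups did not overlap at 6 of the 21 genes, beside 9.44% of all genes.

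IGF signaling drives muscle growth, and its binding proteins hold the hormone in the tissue. Igf1 itself read 698, 804, 887, 595 and 875 in the 5 old mice and 340.2, 455, 279.9, 268 and 364 in the 5 old CR mice. All old CR mice were lower (log2 difference -1.19, SE 0.28, adjusted p = 0.0303), yet the 2 dimmer probe sets of Igf1 differed by 0.14 (adjusted p = 0.797) and -0.15 (adjusted p = 0.673). Igfbp7, a low-affinity binding protein also made by vessels, fell from 6343 ± 1539 to 3296 ± 191 (log2 difference -0.91, SE 0.19, adjusted p = 0.0197), while its dimmer probe sets were at 0.16 and 0.69 without a call. With Igfbp5 counted, 3 of 30 genes of insulin and IGF signaling were called lower and 0 higher, beside 2.72% and 2.15% of all genes. Their median was -0.17, and -0.017 with the covariate. For imprinted and IGF genes, Nnat, Igfbp5 and Igfbp7 were called in all fits that left out 1 mouse, and the highest adjusted p ran from 0.0667 (Plagl1, without old replicate 2) to 0.103 (Mest, without old replicate 2) for Gnas, Igf1, Mest and Plagl1.

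The circadian clock runs on Arntl, an activator, and on Per genes, which repress it, and both cycle over the day in opposite phase. Arntl is itself driven by ROR factors and repressed by NR1D1 through elements near its start. A match to such an element is shown because Arntl was called, as 30 bases from RefSeq on GRCm38.p6, the match beginning 30 bases downstream of the start, with the core of the element, TAGGTCA, in capitals.
Arntl, chr7:113207531-113207560, plus strand: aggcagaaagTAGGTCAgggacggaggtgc
These letters, searched on both strands, occur in 2.61% of 32851 promoters (250 bases before to 50 after the start), and a match is a description and not a site. Arntl read 553, 358, 415, 389.5 and 373 in the 5 old mice and 249.8, 194, 259, 247 and 223 in the 5 old CR mice, lower in all old CR mice (log2 difference -0.82, SE 0.20, adjusted p = 0.036). Csnk1e, a kinase that marks PER proteins, fell from 1163 ± 208 to 733 ± 89.3 (log2 difference -0.66, SE 0.14, adjusted p = 0.0212). Per3 rose from 322 ± 68.6 to 515 ± 77.6 (log2 difference 0.69, SE 0.19, adjusted p = 0.0485), and its dimmer probe sets differed by 0.79 (adjusted p = 0.173) and 0.85 (adjusted p = 0.0936). Per2 had 281 ± 46.6 and 401 ± 33.8 without overlap or call (0.53, adjusted p = 0.107), and turned to -0.45 with the covariate, while Npas2, a partner of Arntl, was dim at 17.9 ± 7.32 and 58 ± 39.8 (1.55, adjusted p = 0.0589), with -0.64 (adjusted p = 0.308) at its other probe set. In all 1 of 19 clock genes was called higher and 2 lower (median 0.039), and the lognormal-normal model called 0 of 16 tested. The hour of dissection was not given in the sources used here.

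Nr3c1, the glucocorticoid receptor, fell from 1417 ± 142 to 980.4 ± 123 (log2 difference -0.54, SE 0.14, adjusted p = 0.0389), with -0.03 and 0.18 and no call at its dimmer probe sets. Of 23 glucocorticoid-induced genes 1 was called lower and 0 higher (median -0.19), and Tsc22d3, a classical target, had 1584 ± 183 and 2866 ± 1328 (0.72, adjusted p = 0.143). The called one was Cdkn1a, the cell cycle inhibitor p21 and also a p53 target, which read 946, 875, 905, 1109 and 1772 in the 5 old mice and 698, 649, 589, 510.0 and 658 in the 5 old CR mice. The old mice were all higher (log2 difference -0.81, SE 0.19, adjusted p = 0.0304), with 396 ± 57.1 in young mice and 0.19 (adjusted p = 0.897) at its dimmer probe set. Immediate early genes gave no call by limma among 29 (5 at an unadjusted p under 0.05, 1 of 20 tested by the lognormal-normal model), with Egr1 at 781 ± 256 and 494 ± 93.8 (-0.62, adjusted p = 0.134) and Jun at 1624 ± 807 and 953 ± 307 (-0.70, adjusted p = 0.184). Of these clock and hormone genes none was called in all fits that left out 1 mouse, and the highest adjusted p ran from 0.0501 (Csnk1e, without old replicate 2) to 0.113 (Per3, without old replicate 3) for Arntl, Cdkn1a, Csnk1e, Nr3c1 and Per3.

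Among 32 p53 targets and cell cycle inhibitors 3 were called lower and 0 higher, against a median of 0.066. Besides Cdkn1a and Tap1 this was Btg1, an antiproliferative factor, which fell from 747 ± 225 to 336 ± 92.7 (log2 difference -1.14, SE 0.25, adjusted p = 0.0245), and was at -1.51 and an unadjusted p of 0.0135 with the covariate. Apoptosis regulators had 2 of 40 called lower (5%, beside 2.72% of all genes), Dapk1, a kinase that promotes cell death (534 ± 66.9 to 264 ± 53.9, -1.03, adjusted p = 0.0057), and Casp12, a caspase of the endoplasmic reticulum (746 ± 97.7 to 477 ± 95.1, -0.66, adjusted p = 0.0471, and -0.0091 with the covariate). Dimmer probe sets of Dapk1 and Casp12 were at -0.22 and -0.32 and were not called. Of 35 antioxidant and glutathione genes 3 were called lower and 0 higher, with 19 higher means and a median of 0.0089. Nfe2l2, the factor that turns on antioxidant genes, fell from 1513 ± 182 to 1000.3 ± 148 (log2 difference -0.60, SE 0.14, adjusted p = 0.0297), and so did both subunits of the enzyme that starts glutathione synthesis. Its catalytic subunit Gclc fell from 383 ± 35.2 to 235 ± 67.6 (-0.75, adjusted p = 0.0331) and its modifier Gclm from 525 ± 191 to 234 ± 55.4 (-1.10, adjusted p = 0.0445), the latter with overlap. All 3 had an unadjusted p under 0.05 with the covariate, at -0.76, -0.96 and -1.82.

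Pde4b, which breaks down cyclic AMP, read 2351, 2350.1, 1979.6, 2353 and 2259.8 in the 5 old mice and 1049, 971, 1423, 1347 and 1236 in the 5 old CR mice. The diets were far apart (log2 difference -0.92, SE 0.14, adjusted p = 0.00648), and young mice had 1069.5 ± 171, but a dimmer probe set differed by -0.28 (adjusted p = 0.214). Adcy9, an enzyme that makes cyclic AMP, fell from 1309 ± 129 to 800.1 ± 196 (-0.75, adjusted p = 0.0322), and these were the 2 calls of 19 genes of the cyclic AMP pathway. Nos1, the nitric oxide synthase of muscle fibers, fell from 995 ± 146 to 629 ± 121 (-0.67, adjusted p = 0.0335), and Odc1, which opens polyamine synthesis, had 3033 ± 672 and 1809 ± 552 at its brightest probe set (-0.78, adjusted p = 0.0711) and fell by 1.03 on the log2 scale (adjusted p = 0.0319) at another. With single mice left out, Dapk1 and Pde4b were called in all fits, and the highest adjusted p ran from 0.0584 (Btg1, without old replicate 2) to 0.102 (Casp12, without old CR replicate 7) for Adcy9, Btg1, Casp12, Gclc, Gclm, Nfe2l2 and Nos1.

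The machinery of protein synthesis showed few calls. None of 41 cytosolic ribosomal protein genes was called by limma, although Rps20 (6596 ± 464 and 8882 ± 822, 0.43, adjusted p = 0.051) and Rplp0 (12159 ± 794 and 15717 ± 1096, 0.37, adjusted p = 0.07) did not overlap (median 0.11, 8 at an unadjusted p under 0.05, 0 of 38 tested by the lognormal-normal model). Of 30 translation factors Eef1d, an exchange factor of elongation, rose from 1661 ± 148 to 2742 ± 174 (log2 difference 0.73, SE 0.14, adjusted p = 0.0161), with a rise of 0.66 (adjusted p = 0.0413) at another probe set, and the initiation factor subunits Eif3f (-0.59, adjusted p = 0.051) and Eif3e (-0.54, adjusted p = 0.0931) had lower means without a call. Dimmer probe sets of Rps20 and Eif3e ran from -0.57 to 0.77 and from -0.45 to 1.37. In splicing Sf3b2 rose from 612 ± 62.8 to 1049 ± 115 (0.78, adjusted p = 0.0113) and Hnrnpa2b1 from 2361 ± 263 to 3607 ± 272 (0.62, adjusted p = 0.026), and Prpf8, the core of the spliceosome, fell from 1898 ± 469 to 1022 ± 222 (-0.89, adjusted p = 0.0283), with the other 37 of 40 genes not called. Dimmer probe sets of Sf3b2 ran from 0.036 to 0.55 and those of Hnrnpa2b1 from 0.049 to 0.39, none of them called.

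Chaperones of the cytosol and mitochondria had 2 of 33 called higher. Hspb2, of the small heat shock proteins, read 1040.2, 863, 1247, 842 and 978 in the 5 old mice and 2692, 3071, 2660.1, 2919 and 3265 in the 5 old CR mice. The lowest old CR mouse was above the highest old mouse (log2 difference 1.57, SE 0.25, adjusted p = 0.0079), and 0.55 with the covariate, and young replicate 3 was at 966 among young mice of up to 2909. Hspa9, the Hsp70 of mitochondria, rose from 2543 ± 698 to 4234 ± 609 (0.76, adjusted p = 0.0245). In the endoplasmic reticulum Canx, the chaperone calnexin, rose from 949.7 ± 52.7 to 1544 ± 339.8 (0.67, adjusted p = 0.0347, with 0.93 (adjusted p = 0.0389) at another probe set) and Dnajc3, which restrains the kinase PERK, fell from 835 ± 211 to 403 ± 53.1 (log2 difference -1.02, SE 0.20, adjusted p = 0.0152, with -0.64 to 0.042 and no call at 4 dimmer probe sets), the 2 calls of 29. Smad3, a transducer of TGF-beta signals, rose from 169 ± 54.7 to 403 ± 88.2 (1.29, adjusted p = 0.0262, and 0.45 with the covariate). With single mice left out, calls of Eef1d, Sf3b2, Hspb2 and Dnajc3 held in all fits, and the highest adjusted p ran from 0.0566 (Hnrnpa2b1, without old replicate 5) to 0.071 (Canx, without old CR replicate 3) for Canx, Hnrnpa2b1, Hspa9, Prpf8 and Smad3.

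Several vessel and basement membrane genes were lower in old CR muscle. Vwf, the endothelial protein that tethers platelets, read 410.5, 669, 432, 557 and 839 in the 5 old mice and 315, 285, 260.1, 306 and 229.9 in the 5 old CR mice, with no overlap (log2 difference -1.02, SE 0.21, adjusted p = 0.018). Plvap, of endothelial windows, fell from 507 ± 143 to 289.5 ± 67.3 (-0.80, adjusted p = 0.0449) and Ets1, an endothelial transcription factor, from 549 ± 140.2 to 318 ± 53.6 (-0.77, adjusted p = 0.0429), although its dimmer probe sets were not called and ran from -0.58 to 0.44. Of 31 endothelial genes 3 were called lower and 0 higher, beside 2.72% and 2.15% of all genes. The list had 23 lower means and a median of -0.12, and of -0.048 with the covariate. Pecam1, a general endothelial marker, ran the other way without a call (450.3 ± 102 and 769 ± 82.8, 0.79, adjusted p = 0.0529), and the summed intensity of the list was 24794 to 31439 in old and 20674 to 25903 in old CR mice. In basement membranes Col4a1, a chain of collagen IV, fell from 1797 ± 357 to 954 ± 232 (log2 difference -0.93, SE 0.21, adjusted p = 0.0262) and Nid2, a nidogen, from 275 ± 107 to 111 ± 30.1 (-1.25, adjusted p = 0.0452), the latter with overlap and with its sign turned by the covariate (0.40). A dimmer probe set of Col4a1 differed by -0.17 (adjusted p = 0.526) and was not called.

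Fibrillar and other collagens gave no call by limma among 28 (median -0.14, with its sign turned to 0.21 by the covariate, 6 at an unadjusted p under 0.05, 1 of 23 tested by the lognormal-normal model), with Col15a1 at 586 ± 222 and 325 ± 86.1 (-0.82, adjusted p = 0.102) and Col14a1 at 596 ± 99 and 414 ± 57.7 (-0.52, adjusted p = 0.115, with 0.028 (adjusted p = 0.949) at its other probe set). Prelp, a leucine-rich matrix protein, fell from 1803 ± 576 to 844 ± 139 (log2 difference -1.05, SE 0.23, adjusted p = 0.023), while Lum, another of its family, had 1034 ± 154 and 1479 ± 168 (0.52, adjusted p = 0.0611), and 17 of 27 tendon and cartilage genes had higher means. Timp3, an inhibitor of metalloproteinases bound to the matrix, was called in both directions. Its brightest probe set fell from 2974 ± 324 to 1631 ± 91.5 (log2 difference -0.86, SE 0.19, adjusted p = 0.0255, and -0.053 with the covariate), while 2 others rose by 1.52 (adjusted p = 0.012) and 0.94 (adjusted p = 0.0452) and another was at 0.38 (adjusted p = 0.118). Timp1 had 104 ± 51.9 and 228 ± 73.5 (1.22, adjusted p = 0.0648).

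Keratins and skin genes mark epidermis, which is not part of the muscle, and had the lowest median of the 51 lists, -1.03 over 23 genes. This median rested on old replicates 2 and 3: without both, a choice made after seeing the data, it was 0.055. Krt5, a keratin of basal skin cells, was at 121, 1298, 1360.3, 166 and 98 in the old mice and 26.3, 144, 34.6, 29.7 and 122 in the old CR mice (-2.57, adjusted p = 0.109), so the 2 mice carried its high mean. Krt19 (79.6 ± 14.5 to 32.2 ± 14.3, -1.41, adjusted p = 0.0271) and Krt18 (212 ± 88.2 to 70.7 ± 35.8, -1.64, adjusted p = 0.0471), keratins of simple epithelia, were the 2 called members. Without old replicates 2 and 3 they differed by -1.51 (adjusted p = 0.0915) and -2.03 (adjusted p = 0.0639), with 3 old mice in place of 5, and were not called. In that fit 18 of the 109 called probe sets named in the text were called. They were those of Tfrc, Acly (both named probe sets), Josd2, Coa3, Anp32a, Nnat, H2-Aa, Igfbp5, Ttc28, Fdps, Echs1, Atp5e, Mrpl12, Psmc1, Hspb2, Dapk1 and Pde4b, with adjusted p from 0.0077 to 0.0495. For vessel, matrix and keratin genes, Vwf was called in all fits that left out 1 mouse, and the highest adjusted p ran from 0.0509 (Prelp, without old replicate 3) to 0.103 (Plvap, without old replicate 2) for Col4a1, Ets1, Krt18, Krt19, Nid2, Plvap, Prelp and Timp3.

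**Figure D5:**
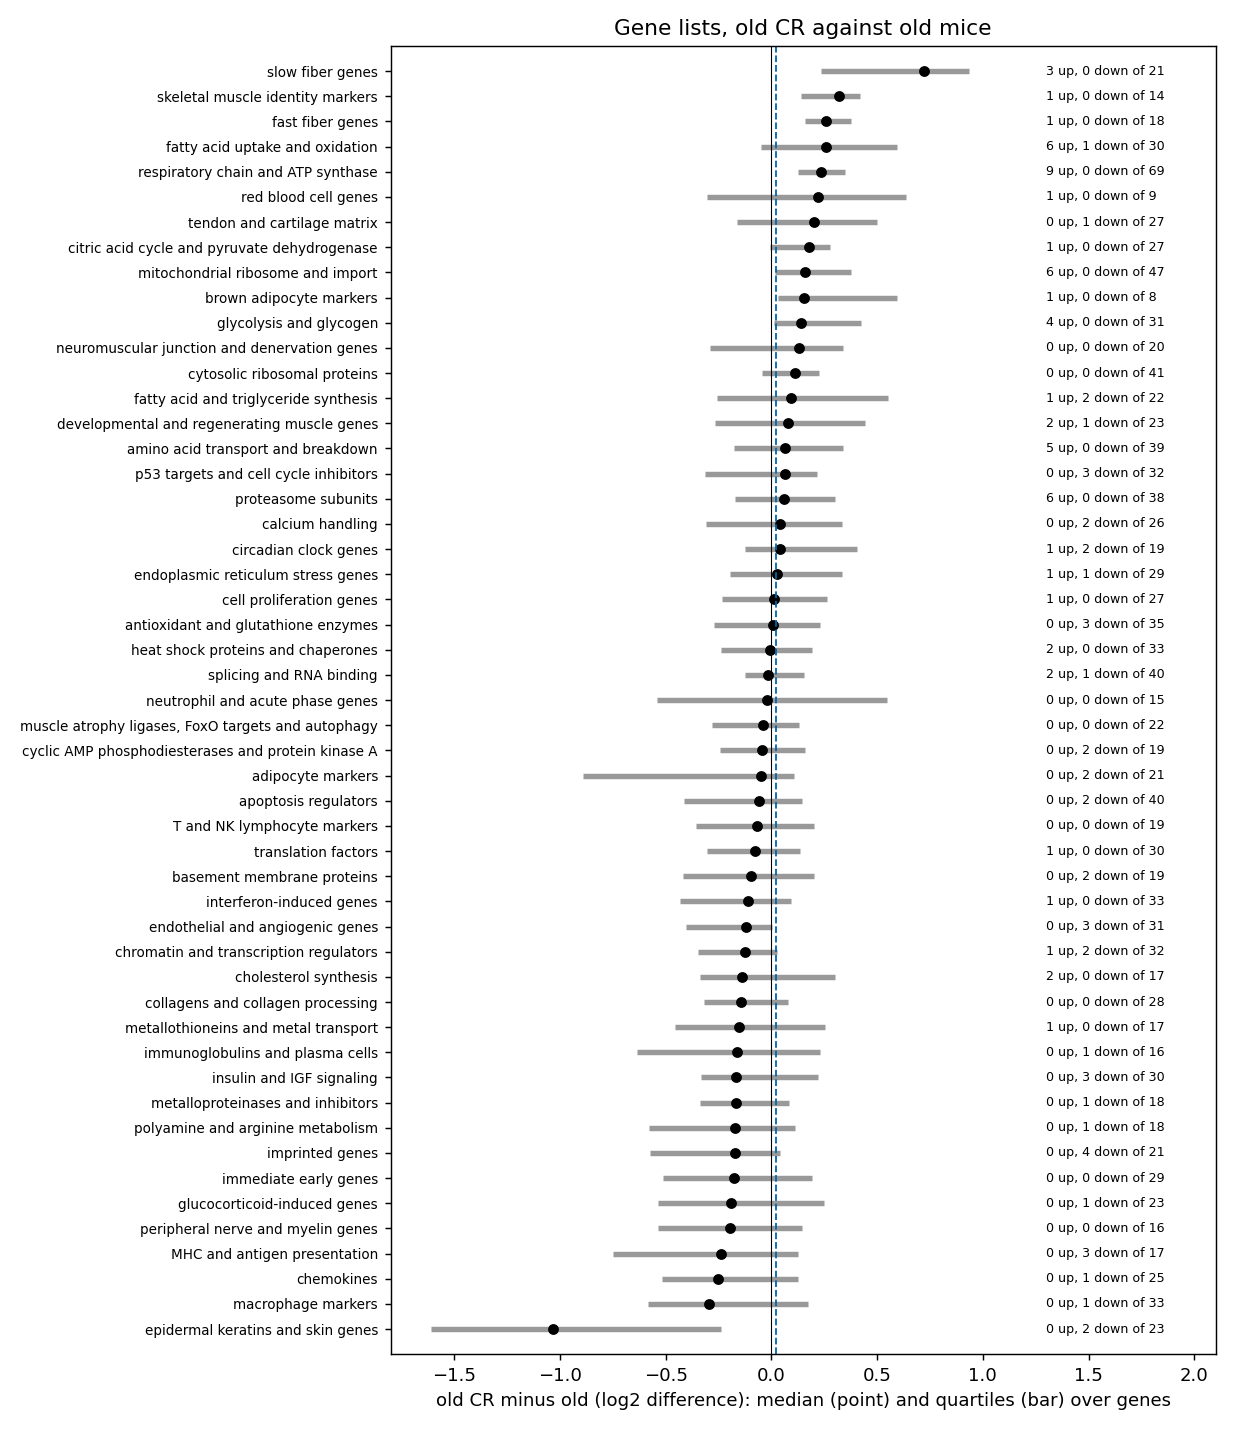
Median (point) and quartiles (bar) of the log2 difference between old CR and old mice (x axis) over the measured genes of 51 gene lists (y axis), with the number called higher and lower at the right and the median of all 12393 genes as a dashed line. Slow fiber, muscle identity, fast fiber, fatty acid oxidation and respiratory chain genes lie highest, and keratins, macrophage markers and chemokines lowest.

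The other lists showed little. In all, 56 of 1246 measured list genes were called higher and 43 lower. Neutrophil and acute phase genes (15, median -0.023, 3 at an unadjusted p under 0.05, 2 of 4 tested by the lognormal-normal model) and peripheral nerve and myelin genes (16, median -0.19, 3 and 0 of 8 tested) gave no call by limma. Metal transport (17, median -0.15) and proliferation genes (27, median 0.014) had 1 call each, both higher. Brown adipocyte markers (8) had 1, the muscle gene Cox8b, whose mean of 11329 in old and 17058 in old CR mice made up most of the sum of that list. Red blood cell genes (9) had 1, Bpgm, with means of 686 and 1467. The summed intensities were 14999 to 18628 in old and 21060.0 to 27809 in old CR mice for the brown adipocyte list, without overlap, and 1885 to 3305 in old and 2748 to 3824 in old CR mice for the red blood cell list. Of 32 chromatin and transcription regulators 2 were called lower, Cebpa and Nr3c1, and 1 higher, Smad3.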

How the data were processed

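Gastrocnemius RNA of 15 mice was hybridized to MOE430A arrays (Affymetrix), 1 array per mouse, 5 young, 5 old and 5 old CR. The intensity values analysed are those the authors deposited, 1 linear value per probe set and array, with a 2% trimmed mean of 500 on every array. The submitters' processing notes name MAS5 and RMA, the study's methods describe RMA, and the deposited values are on the linear scale with array scaling that MAS5 gives, with no detection calls used here. No genome build entered these values. Of 22690 probe sets, 64 controls were left out, and no filter on low values and no pseudocount were used (lowest intensity 0.119). Symbols came from the platform annotation: 20380 tested probe sets had 1 symbol, 691 several and 1555 none.

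Values were converted to log2 and limma 3.58.1 (R 4.3.3) was used for a fit of the 3 groups and the contrast of old CR with old. P-values were adjusted by Benjamini-Hochberg over 22626 probe sets, and the limit of a call was 0.05. The p-values set each difference between the diets against a spread between mice that was pooled over the young, old and old CR groups. The number of arrays limits the precision. Data were also simulated with this design, with independent noise, no shared 3' excess, and changes placed at brighter probe sets alone. There limma recovered 78% of probe sets changed 2-fold and 95% of those changed 4-fold, with 5 false calls among 22626. Recovery at dimmer probe sets and false calls under a shared 3' excess were not simulated. The named genes are the 12 largest called rises and the 12 largest called falls among probe sets of 1 gene, among the 11313 of highest mean intensity and without overlap between the diets, and, in each list described, up to 5 genes of smallest p by the brightest probe set. Mlycd falls outside this rule. Members of the 51 lists, with 1246 measured genes, and the comparison itself were chosen with earlier results of these data known, some lists follow gene families that the study named from these mice, and lists share genes. Lists are described by counts and medians and were not tested. The 3' excess was compared by an exact permutation test (SciPy 1.17.1), with p-values adjusted over 3 such measures. No arrays were identical (correlations 0.906 to 0.952). Alternatives were the 11313 brighter probe sets alone, median centering, quantile normalization, the old groups alone, a variance trend with robust eBayes, a replicate block, 3' excess as a covariate, each mouse left out, and a lognormal-normal model of 5 expression patterns, the kind the study's methods name, at a posterior probability above 0.9. Old replicates 2 and 3 were left out together as an alternative chosen after seeing the data. Python 3.11.15 with NumPy 2.4.6, pandas 2.3.3 and Matplotlib 3.10.9 made the summaries and figures.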

Additional observations from a re-analysis of the deposited data

Results flagged for a closer look

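In 15 of 298 groups of 5 mice at the named probe sets, 1 mouse lay apart by a gap that took most of the range of its group, and chance alone gives about 1 in 20 groups. The gap is given as a share of the range. Old CR replicate 2 was the highest of its group at Hadha (8805, share 0.751), Uqcrh (6816, 0.715), Mrpl12 (2615, 0.714), Mrps18c (1508.5, 0.761) and Hspa9 (5295, 0.739), all genes of mitochondrial proteins, and the lowest at Igfbp5 (2199.8, 0.897). Old CR replicate 5 was the lowest at Myl3 (14251, 0.780) and Col15a1 (173, 0.887). Old CR replicate 6 was the lowest at Cd52 (38.3, 0.834) and Col14a1 (316, 0.729). Old CR replicate 3 was the lowest at Ndufv2 (9596, 0.871). Among the old mice, replicate 1 was the lowest at Josd2 (22.9, 0.756), replicate 3 the lowest at Pde4b (1979.6, 0.766), replicate 5 the highest at Mrpl11 (1267, 0.796) and the lowest at Ncl (136, 0.931). Of these 15 genes, Igfbp5, Hadha, Uqcrh, Mrpl12, Josd2 and Pde4b were called in all fits that left out 1 mouse. The part of these single mice in the differences was not tested beyond those fits.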

How the results depend on the processing

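Against 612 rises and 490 falls, the 11313 brighter probe sets alone gave 870 and 924. The variance trend with robust eBayes gave 875 and 791. The lognormal-normal model gave 468 and 291, and 340 of its 759 calls were among the 1102. It called 0 of 68 tested respiratory chain genes, 1 of 29 of glycolysis, 0 of 16 of the clock and 0 of 18 fast fiber genes. Of other lists it called 5 of 25 tested fatty acid oxidation, 4 of 37 proteasome, 7 of 19 slow fiber, 6 of 26 endothelial and 7 of 11 keratin and skin genes. The background for these counts is its 759 calls over 11313 brighter probe sets. With 3' excess as a covariate there were 0 rises and 0 falls (1461 at an unadjusted p under 0.05), and with the replicate number as a block 2 and 2 (3430 at an unadjusted p under 0.05). The replicate number was not shown to pair the mice, since same-numbered old and old CR mice correlated at 0.073, 0.011 and 0.0072. Leaving out 1 mouse gave 270 to 969 rises and 192 to 688 falls, the most without young replicate 3 and the fewest without old replicate 2. Rises were 389, 320, 321 and 289 without old CR replicates 3, 5, 6 and 7 and 270, 286 and 351 without old replicates 2, 3 and 5, and falls were 192 to 319 without any 1 of the old and old CR mice. Leaving out old replicates 2 and 3 gave 87 rises and 40 falls, of which 116 were among the 1102, with 3 old mice in place of 5. Of the 109 called probe sets named, 6 turned sign with the covariate: Ywhag (-0.71), Ndrg1 (-0.93), Josd2 (-0.010), Ncl (-0.37), Bpgm (-0.30) and Nid2 (0.40). None of these called probe sets turned sign in the other limma fits, and 49 were called in every fit that left out 1 mouse. Of the 51 list medians, 11 turned sign with the covariate, 9 with median centering and 8 when every probe set of a gene was averaged. The cause was not tested. Dim signals limit the lowest probe sets, where 292 of the 1102 calls lie outside the 11313 brighter probe sets.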
